A study of Mus musculus with 20 samples.

Results

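Fibroblast growth factor (FGF) receptors, their ligands and the Esrp splicing factors were followed across embryonic mouse skin as 9 genes of the 23432 listed in the count files. They were taken by symbol: 4 receptor genes (Fgfr1, Fgfr2, Fgfr3 and Fgfrl1), 3 ligand genes (Fgf7, Fgf10 and Fgf20) and 2 genes for splicing factors (Esrp1 and Esrp2). RNA was sequenced from 12 libraries in 4 groups of 3. The first group, E9 Het epidermis, was epidermis at embryonic day 9 from mice with the ΔNp63-GFP KI-Het genotype, with libraries numbered 1, 2 and 4. E13 Het epidermis had the same genotype at embryonic day 13, and E13 KO epidermis was ΔNp63-GFP KI-KO at that age. E13 Het dermis was dermis of ΔNp63-GFP KI-Het mice at embryonic day 13. All animals therefore carried at least 1 GFP knock-in allele of ΔNp63, the form of the transcription factor p63 that basal keratinocytes make, and no group was wild type. Epidermal cells had been sorted by GFP and dermal cells by staining for CD140a, which Pdgfra encodes. The epidermal GFP gate depends on the activity of the targeted locus in each genotype.

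FGF ligands are secreted proteins that bind receptor tyrosine kinases together with heparan sulfate. In skin, Fgf7 and Fgf10 are made by dermal mesenchyme and act on the epithelial IIIb isoform of Fgfr2, while mesenchymal cells carry IIIc isoforms with other ligand preferences. Esrp1 and Esrp2 are RNA-binding proteins of epithelial cells that bring the IIIb exon into the Fgfr2 transcript. The deposited counts add all isoforms of a gene, so the IIIb and IIIc forms were not separated here.

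Epidermal libraries held 3373819 to 7777808 counts in genes, and dermal libraries 16931664 to 33386872. Trp63, the gene of p63, checked the labels: its level was 455 to 612 CPM (counts relative to library size, scaled by TMM over the 12 libraries) in E13 Het epidermis and 20.5 to 25.0 CPM in E13 KO epidermis. Which part of the Trp63 transcript those reads come from was not analysed here. Levels of 12 epidermal marker genes summed to 2601 to 5430 CPM in the epidermal libraries and to 46.7 to 68.7 CPM in dermis. The 18 markers of dermal mesenchyme summed to 38331 to 51237 CPM in dermis, 394 to 436 CPM in E9 Het epidermis, 1237 to 2474 CPM in E13 Het epidermis and 1896 to 3238 CPM in E13 KO epidermis. Library 2 held the highest sum in each E13 epidermal group. The labels do not say that the libraries of a group came from separate animals, so p-values measure only the spread between these samples. In such bulk samples, fewer cells of a type and less RNA per cell cannot be told apart.

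Promoters of 4 genes are printed first, because the receptor genes Fgfr2 and Fgfr3 and the ligand gene Fgf7 were called between E13 Het epidermis and dermis, in opposite directions, and Fgf10, which was not called there, had its highest levels in dermis. The sequences are RefSeq's, on GRCm38.p6, and give the 250 bases before the first listed start of each gene, 5′ to 3′ on the gene's strand. Capitals mark each match to the degenerate core of a p53 family response element, which is CNNG, then 6 bases of any kind, then CNNG, where N is any base. The Fgfr2 window lies at chr7:130266809-130267058 on the minus strand. The Fgfr3 window lies at chr5:33721474-33721723, that of Fgf7 at chr2:126034408-126034657 and that of Fgf10 at chr13:118714449-118714698, all on the plus strand.
Fgfr2: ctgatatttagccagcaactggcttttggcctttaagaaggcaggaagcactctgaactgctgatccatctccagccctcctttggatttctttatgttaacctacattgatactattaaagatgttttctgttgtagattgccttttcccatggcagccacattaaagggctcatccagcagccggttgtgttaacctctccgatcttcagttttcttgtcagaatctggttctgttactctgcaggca
Fgfr3: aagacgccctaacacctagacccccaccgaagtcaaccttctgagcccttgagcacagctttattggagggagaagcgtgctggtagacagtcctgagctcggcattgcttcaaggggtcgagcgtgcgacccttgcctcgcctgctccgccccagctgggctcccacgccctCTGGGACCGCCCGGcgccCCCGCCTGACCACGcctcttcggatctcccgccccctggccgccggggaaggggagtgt
Fgf7: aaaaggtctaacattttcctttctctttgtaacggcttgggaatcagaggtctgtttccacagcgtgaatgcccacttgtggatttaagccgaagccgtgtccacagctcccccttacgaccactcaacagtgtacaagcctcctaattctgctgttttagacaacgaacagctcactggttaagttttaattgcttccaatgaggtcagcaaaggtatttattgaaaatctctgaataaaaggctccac
Fgf10: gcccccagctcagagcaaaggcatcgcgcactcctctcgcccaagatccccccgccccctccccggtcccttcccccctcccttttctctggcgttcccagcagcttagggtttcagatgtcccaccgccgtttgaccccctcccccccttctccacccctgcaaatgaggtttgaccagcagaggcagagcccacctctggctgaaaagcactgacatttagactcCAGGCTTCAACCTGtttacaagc
The windows of Fgfr2 and Fgf7 held no match, that of Fgfr3 held 2 that did not overlap each other, and that of Fgf10 held 1. G and C made up 44.0% of the Fgfr2 window, 66.8% of the Fgfr3 window, 43.6% of the Fgf7 window and 61.2% of the Fgf10 window. The motif is palindromic and so loose that 63.4% of 32817 such windows held it. A stricter form of it (CATG, 6 bases of any kind, CATG), the E-box CAGGTG and the grainyhead motif AACCGGTT were also searched on both strands and matched none of these 4 windows, against 0.488%, 17.2% and 0.116% of all windows. A match is a description of letters and not a binding site. In all, 5 of the 9 genes had a sequence in the table. Fgfr3 had a second listed start, whose window is not printed and held 3 matches to the degenerate core, with 72.8% G and C. Fgfrl1, whose window is not printed, was also called against dermis. Its window held 5 matches to the degenerate core, more than any printed window, with 73.6% G and C.

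Within epidermis, Fgfr1 and Fgfr2 were the receptor genes that passed the test, and Fgfr3 and Fgfrl1 did not. Fgfr2 was the gene that passed the test in every comparison. It was 2.11-fold higher in Het epidermis at E13 than at E9, and in E13 KO epidermis it was 5.0-fold lower than in E13 Het epidermis. Fgfr1 moved the other way, 3.13-fold lower at E13 than at E9 in Het epidermis and 2.17-fold higher in KO than in Het epidermis at E13, the latter a call that ended in 5 of 6 refits without 1 library. Levels of Esrp1 and Esrp2 were between 4.83 and 329.7 CPM in the epidermal libraries and at most 1.12 CPM in dermis.

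Of the 9 genes, 7 had enough reads to be tested among epidermal libraries, and Fgf7 and Fgf20 did not. Here and below a gene was called by edgeR's quasi-likelihood test, with p-values adjusted by Benjamini and Hochberg over the whole table and a threshold of 0.05. Where counts at an unadjusted p under 0.05 are given, the share of all genes at that threshold was not computed. Between KO and Het epidermis at E13, 1 of the 7 was higher (Fgfr1) and 1 lower (Fgfr2), where 2.2% of 13052 genes were called, 0.835% higher and 1.36% lower. Between E13 and E9 in Het epidermis, 1 was higher (Fgfr2) and 1 lower (Fgfr1), where 7.29% of genes were called, 4.77% higher and 2.53% lower. Between E13 KO and E9 Het epidermis, 2 were higher (Esrp1 and Esrp2) and 1 lower (Fgfr2), where 7.67% of genes were called, 4.62% higher and 3.05% lower. These 3 comparisons share libraries, since each group enters a pair of them. Between E13 Het epidermis and dermis, 8 genes were tested, 4 called higher (Fgfr2, Fgfr3, Esrp1 and Esrp2) and 3 lower (Fgfr1, Fgfrl1 and Fgf7), where 34.7% of 12975 genes were called, 16.5% higher and 18.2% lower. The median log2 fold change of the tested genes was 0.38, 0.52, -0.25 and 0.27 in these comparisons, in the order given, against 0.03, -0.00, 0.01 and -0.13 over all genes tested. Dermal RNA was selected with oligo(dT) and epidermal RNA was depleted of ribosomal RNA, per the labels, so tissue and RNA selection cannot be told apart in the last comparison.

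**Figure D1:**
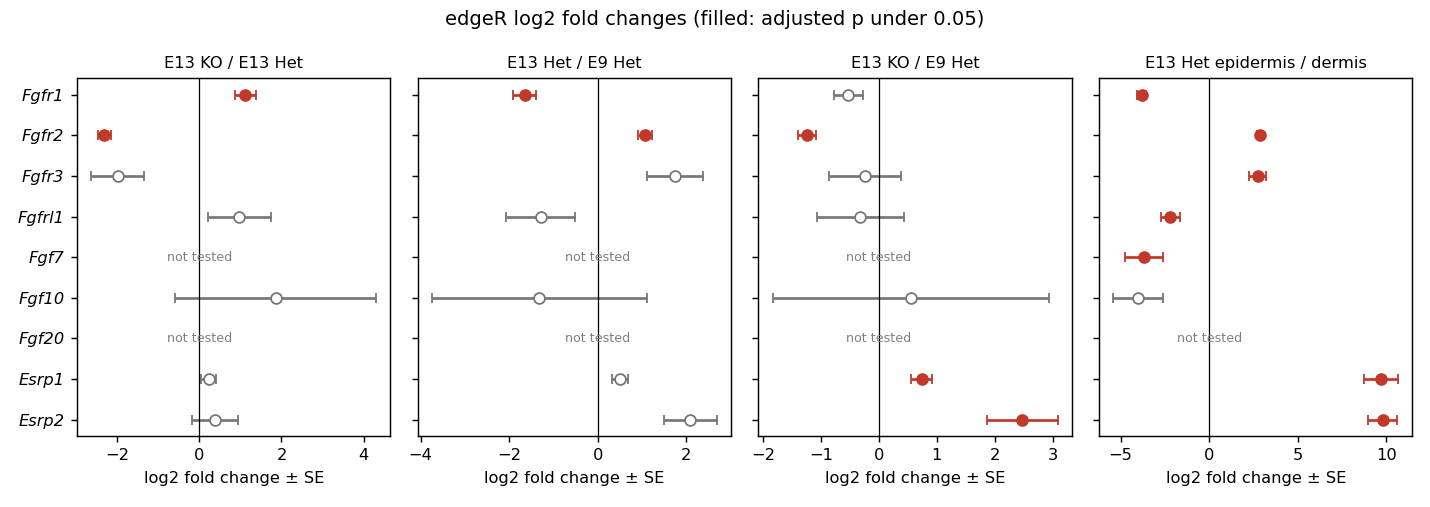
Log2 fold changes with their standard errors (edgeR) for the 9 genes in 4 comparisons, 1 panel each; filled red points had an adjusted p under 0.05, open grey points did not, and genes with too few reads are marked as not tested. Fgfr2 is filled in each panel, at -2.32, 1.08, -1.24 and 2.86 from left to right.

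Fgfr2 encodes the main receptor tyrosine kinase for FGFs in embryonic epidermis. The gene lies at chr7:130162451-130266808 and overlaps no other annotated gene. Its level was 459, 502 and 363 CPM in the E9 Het libraries, and 784, 1098 and 907 CPM in the E13 Het libraries. In E13 KO epidermis it was 186, 206 and 169.6 CPM, and in dermis 139.5, 126 and 112 CPM. All E13 Het libraries stood above all E9 libraries, all KO libraries stood below both Het groups, and no pair of groups overlapped. The log2 fold change of KO against Het at E13 was -2.32 ± 0.16 (SE, n = 3 and 3, edgeR adjusted p = 2.7e-06). From E9 to E13 in Het epidermis it was 1.08 ± 0.16 (edgeR adjusted p = 0.000556). The KO libraries were also below E9 Het epidermis, by -1.24 ± 0.16 on the log2 scale (edgeR adjusted p = 0.0002). Against dermis, E13 Het epidermis was higher by 2.86 ± 0.19 (edgeR adjusted p = 4.17e-05). The KO level of 187 ± 18 CPM (SD, n = 3) was nearest to that of dermis, 126 ± 13.6 CPM, a pair that was not tested. Tissue, genotype and RNA selection all differ between KO epidermis and dermis.

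Fgfr1, the receptor best known from mesenchymal tissues, lies at chr8:25518759-25575718 and overlaps the annotated Gm31288 and Gm16159, which the files do not list. Its level was 107, 94.2 and 144 CPM at E9 and 27.4, 50.1 and 32.0 CPM in E13 Het epidermis. In E13 KO epidermis it was 81.8, 82.7 and 75.4 CPM, and in dermis 557, 529.7 and 447 CPM. Groups did not overlap: the E13 Het libraries were lowest, the KO libraries lay between them and E9, and the dermal libraries were highest. The log2 fold change was -1.65 ± 0.26 from E9 to E13 (edgeR adjusted p = 0.0011) and -3.82 ± 0.27 for E13 Het epidermis against dermis (edgeR adjusted p = 4.98e-05). KO epidermis was higher than Het at E13 by 1.12 ± 0.26 (edgeR adjusted p = 0.0368) and differed from E9 by -0.53 ± 0.25 (edgeR adjusted p = 0.253, not called). The call between KO and Het ended without E13 Het library 1 (edgeR adjusted p = 0.112), Het library 3 (0.0848) or KO library 1 (0.114), 2 (0.0927) or 3 (0.0695), with log2 fold changes of 0.96 to 1.40 over the 6 refits. Without library 2 of both groups, which held the most dermal marker reads, it was 1.38 (edgeR adjusted p = 0.0543). Dermal markers summed to 1299, 2474 and 1237 CPM in the Het and 1896, 3238 and 2059 CPM in the KO libraries, and 0 of the 16 tested dermal markers was called between them by edgeR (1 at an unadjusted p under 0.05). Against E9, 4 of the 16 were called higher in E13 Het and 5 in KO epidermis, and 0 lower. Of all genes, 4.77% and 4.62% were called higher in these comparisons. Between KO and Het epidermis at E13, 2.2% of all genes were called, 0.835% higher in KO. The 10 markers of neurons and neural tube summed to 97.3 to 197 CPM in the Het and 248 to 373 CPM in the KO libraries at E13, and 1 of 9 tested was called higher in KO, Map2 (2.99 ± 0.66, edgeR adjusted p = 0.0408). The 7 markers of melanocytes and neural crest summed to 125 to 191 CPM in Het and 235 to 263 CPM in KO libraries, with 0 of 3 tested called (1 at an unadjusted p under 0.05). Sox10, Dct, Tyrp1 and Foxd3 of that list had too few reads to be tested. Neither sum overlapped between these groups. The sums of the epidermal and dermal markers did overlap between them, as did those of marker lists for endothelium, muscle and blood. At E9 the neural sums were 265 to 270 CPM, within the KO range. The E9 sums of melanocyte and neural crest markers were 145 to 190 CPM, within the E13 Het range. In dermis the neural sums were 374 to 509 CPM, and those of melanocyte and neural crest markers at most 24.7 CPM. The part of dermal, neural or neural crest cells in the differences of Fgfr1 and Fgfr2 was not tested.

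The opposite moves of the receptor genes changed their reads relative to each other within each library, a ratio that does not depend on library scaling. In E9 Het epidermis there were 23.4, 18.8 and 39.6 Fgfr1 reads per 100 Fgfr2 reads. In E13 Het epidermis there were 3.49, 4.56 and 3.53, and in E13 KO epidermis 44.0, 40.2 and 44.4. Dermis had 399, 419 and 397, the only group with more Fgfr1 than Fgfr2 reads. Because the genes differ in transcript length, the ratio is read between groups and not as a ratio of molecules. No pair of groups overlapped, and each of the 4 comparisons gave an exact permutation p of 0.1 (two-sided, n = 3 and 3), the smallest that 3 against 3 allows, or 0.15 after adjustment over the family of 15 ratio tests. Fgfr2 took 71.0% to 80.5% of the reads of Fgfr1, Fgfr2 and Fgfr3 together at E9, 89.8% to 93.0% in E13 Het epidermis, 66.1% to 67.9% in KO epidermis and 19.2% to 19.8% in dermis.

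**Figure D2:**
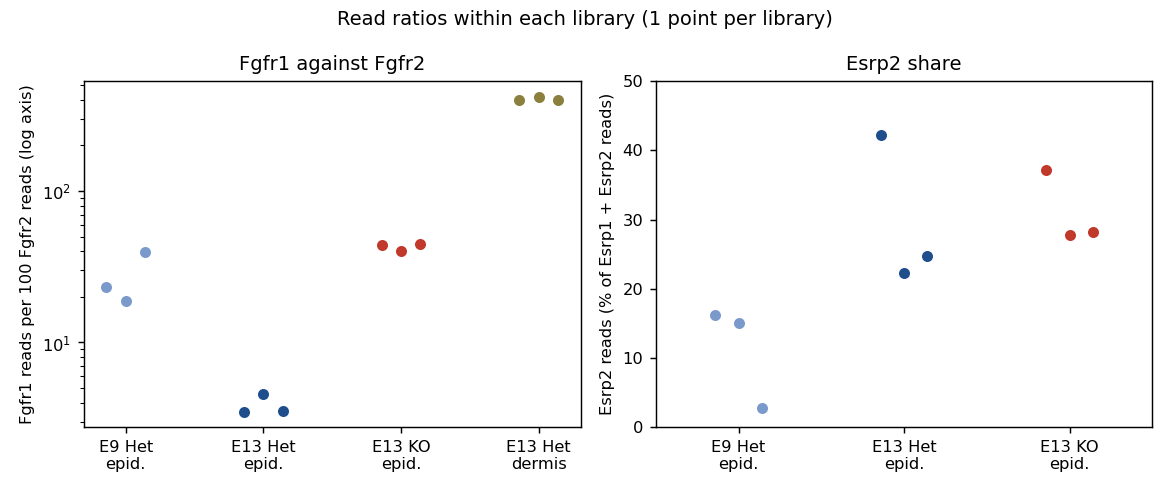
Read ratios within each library, 1 point per library: left, Fgfr1 reads per 100 Fgfr2 reads on a log axis in the 4 groups; right, Esrp2 reads as a percentage of Esrp1 and Esrp2 reads in the 3 epidermal groups. Left, the E13 Het libraries sit at 3.49 to 4.56 and the KO libraries at 40.2 to 44.4; right, E9 library 4 is lowest at 2.77%.

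Fgfr3, a receptor gene known for restraining bone growth, lies at chr5:33721724-33737068. Its level was 14.5, 27.3 and 4.60 CPM at E9, 61.5, 32.8 and 61.7 CPM in E13 Het epidermis, 11.8, 22.9 and 4.66 CPM in KO epidermis and 8.16, 3.54 and 11.1 CPM in dermis. The E13 Het libraries were above all others, although library 2 came close to the highest E9 library. Against dermis the log2 fold change was 2.74 ± 0.48 (edgeR adjusted p = 0.00316). Within epidermis it was -2.0 ± 0.64 for KO against Het (edgeR adjusted p = 0.169), 1.75 ± 0.63 for E13 against E9 (edgeR adjusted p = 0.128) and -0.25 ± 0.62 for KO against E9 (edgeR adjusted p = 0.898), none of them called. DESeq2 called the first pair, with adjusted p of 0.015 for KO against Het and 0.0241 for E13 against E9. Relative to Fgfr2 reads, Fgfr3 reads overlapped between all groups, from 1.27 to 11.1 per 100.

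Fgfrl1 encodes a receptor-like protein that binds FGFs but lacks the kinase domain, and lies at chr5:108694229-108706950. Its level was 13.1, 11.3 and 16.3 CPM at E9, 7.92, 6.18 and 2.39 CPM in E13 Het epidermis and 11.2, 11.8 and 9.58 CPM in KO epidermis. Dermis held 26.4, 26.4 and 21 CPM. The E13 Het libraries were lowest and the dermal libraries highest, with no overlap of either with another group, and the group means had the same order as for Fgfr1. E13 Het epidermis was below dermis by -2.19 ± 0.54 on the log2 scale (edgeR adjusted p = 0.0155). That call ended without dermal library 1 (edgeR adjusted p = 0.0685) or 2 (0.0771). Within epidermis the log2 fold changes were 0.97 ± 0.77 for KO against Het, -1.29 ± 0.77 for E13 against E9 and -0.32 ± 0.76 for KO against E9, with edgeR adjusted p of 0.738, 0.413 and 0.89.

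**Figure D3:**
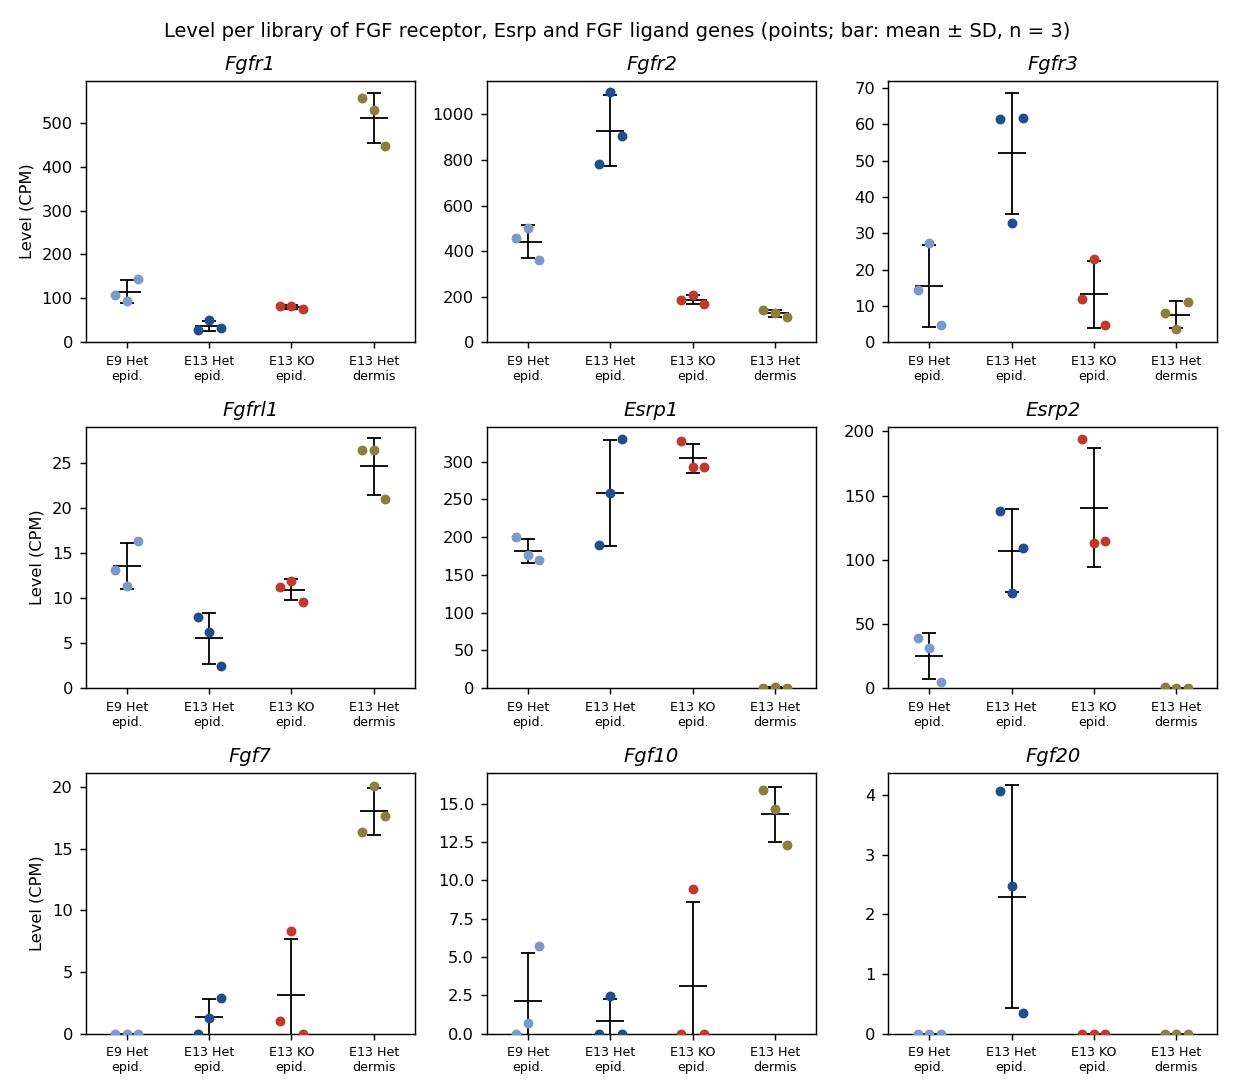
Level (CPM, linear axes from 0, 1 scale per panel) of the 9 genes in each of the 12 libraries, with the mean and SD of each group of 3; error bars that would pass below 0 are cut at 0. Fgfr2 is highest in E13 Het epidermis (929 ± 158 CPM), Fgfr1 in dermis (511 ± 57.3 CPM), and Esrp1 and Esrp2 sit near 0 in dermis.

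The ligand genes Fgf7 and Fgf10 were found mainly in dermis, where they encode signals to the epithelium. Fgf7 lies at chr2:126034658-126091185 and overlaps Fam227b, whose level was at most 1.67 CPM in any library. Fgf7 had 16.4, 20.1 and 17.7 CPM in dermis, from 1008 reads in all. In E9 Het epidermis no library had a read, in E13 Het epidermis the levels were 0, 1.24 and 2.90 CPM, and in KO epidermis 1.06, 8.34 and 0 CPM. All dermal libraries stood above all epidermal ones. E13 Het epidermis was lower than dermis by -3.69 ± 1.05 on the log2 scale (edgeR adjusted p = 0.0268), a call that ended without E13 Het library 2 (edgeR adjusted p = 0.0748) or dermal library 1 (0.0862), 2 (0.101) or 3 (0.0789). The 27 reads of E13 Het and 69 of KO epidermis correspond to levels 8.36-fold and 21.9-fold above a limit of 3 counts over the E9 group. That limit allows for counting error at E9 only, and not for that of the 27 and 69 reads. Of the 69 reads in KO epidermis, 62 came from library 2.

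Fgf10, needed for limb and lung outgrowth and a regulator of skin appendages, lies at chr13:118714699-118792573. Dermis had 15.9, 14.7 and 12.3 CPM. The epidermal libraries had 0, 0.705 and 5.75 CPM at E9, 0, 2.47 and 0 CPM in E13 Het epidermis and 0, 9.42 and 0 CPM in KO epidermis. All dermal libraries stood above all epidermal ones, and within epidermis each group had at least 1 library without a read. E13 Het epidermis differed from dermis by -4.0 ± 1.41 on the log2 scale (edgeR adjusted p = 0.0573, not called), and DESeq2 and limma voom called it, at adjusted p of 0.00667 and 0.0101. Without E13 Het library 2, the only one of its group with a read, the value was -10.59 and was called (edgeR adjusted p = 0.00498), and without Het library 1 it was -3.47 and was called (0.0304), whereas the other 4 refits without 1 library gave no call (up to 0.165). Within epidermis the log2 fold changes were 1.86 ± 2.45, -1.32 ± 2.43 and 0.55 ± 2.38 for KO against Het, E13 against E9 and KO against E9, with edgeR adjusted p of 0.888, 0.855 and 0.943. The reads came from few libraries: E13 Het library 2 gave all 20 of its group and KO library 2 all 70. These were also the libraries with the most dermal marker reads of their groups, 2474 and 3238 CPM, whereas the Fgf10 reads of E9 library 4 (5.75 CPM) stood beside a dermal marker sum of 436 CPM. The part of dermal cells in the epidermal ligand reads was not tested.

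**Figure D4:**
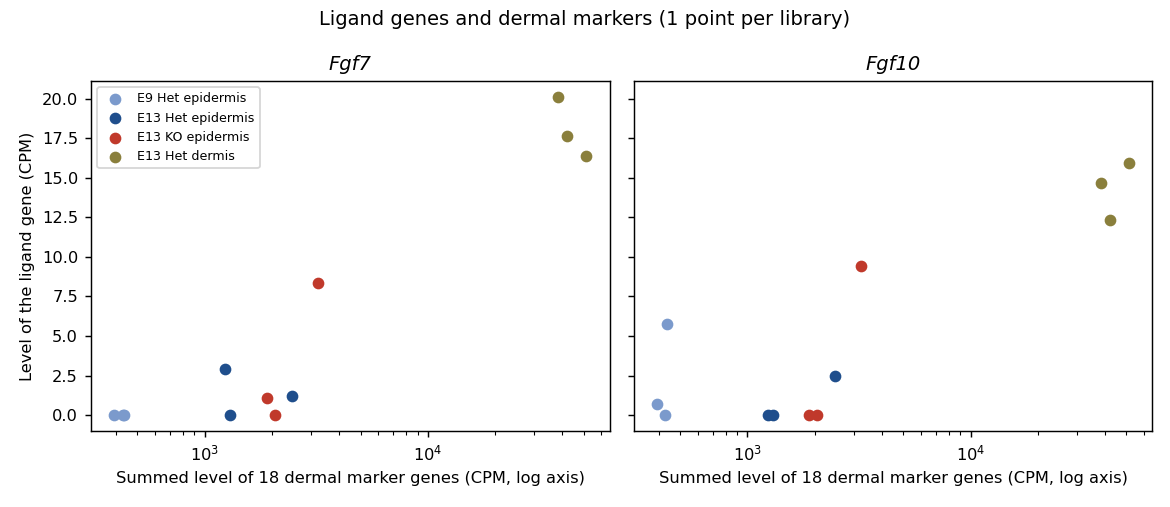
Level of Fgf7 (left) and Fgf10 (right) in CPM against the summed level of 18 dermal marker genes (CPM, log axis), 1 point per library, coloured by group. The dermal libraries lie apart at sums of 38331 CPM and more; among epidermal libraries, KO library 2 has the highest sum (3238 CPM) and the highest level of both genes.

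Fgf20, a ligand of hair placodes in embryonic epidermis, was read only in E13 Het epidermis among these libraries. It lies at chr8:40279166-40286953. The 3 libraries held 18, 20 and 2 reads, or 4.07, 2.47 and 0.341 CPM, and the 9 libraries of E9, KO and dermis held none. Fgf20 had too few reads for the model and was not tested. Taking 3 counts over each other group as its limit, the observed E13 Het level was 13.0-fold above the limit of KO epidermis. It was 12.4-fold above that of E9 and 41.2-fold above that of dermis. These values allow for counting error in the groups without reads only, and not for that of the E13 Het reads. Library 3 alone, with 2 reads, was under its own limit of 0.511 CPM.

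Esrp1 encodes an RNA-binding protein that epithelial cells make and mesenchymal cells lack. The gene lies at chr4:11331933-11386783 and overlaps no other annotated gene. Its level was 200.2, 176 and 169 CPM at E9, 189, 258 and 329.7 CPM in E13 Het epidermis and 327, 293 and 293 CPM in KO epidermis. Dermis had 0.116, 1.12 and 0 CPM. The E13 Het libraries overlapped both other epidermal groups, the KO libraries stood above all E9 libraries, and dermis was far below all of them. Esrp1 was higher in E13 Het epidermis than in dermis by 9.70 ± 0.97 on the log2 scale (edgeR adjusted p = 0.000491). KO and Het epidermis at E13 differed by 0.22 ± 0.18 (edgeR adjusted p = 0.745). From E9 to E13 in Het epidermis the difference was 0.52 ± 0.18 (edgeR adjusted p = 0.109, not called). DESeq2 and limma voom called it, at adjusted p of 0.0346 and 0.0188, and so did edgeR without E13 Het library 1 (0.68, adjusted p = 0.0261), within a range of 0.27 to 0.68 over the 6 refits. KO epidermis was higher than E9 by 0.74 ± 0.18 (edgeR adjusted p = 0.0218). That call ended without E9 library 1, 2 or 4 (edgeR adjusted p = 0.0538, 0.0907 and 0.0831) and without KO library 1 or 3 (0.0896 and 0.0508), and its value was 0.68 to 0.79 over the 6 refits.

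Esrp2 acts on many of the same exons as Esrp1. It lies at chr8:106130319-106137193, where Nfatc3 and 1810019D21Rik, both counted in the files, overlap it, so reads there may be split or shared. Its level was 38.8, 31.0 and 4.83 CPM at E9, 138, 74.0 and 109 CPM in E13 Het epidermis and 194, 113 and 115 CPM in KO epidermis. In dermis it was 0.347, 0 and 0 CPM. All E13 epidermal libraries stood above all E9 libraries, and E9 library 4 was the lowest epidermal library. Esrp2 was higher in E13 Het epidermis than in dermis by 9.79 ± 0.83 on the log2 scale (edgeR adjusted p = 0.000166), and higher in KO epidermis than at E9 by 2.47 ± 0.61 (edgeR adjusted p = 0.0407). The E9 to E13 difference in Het epidermis was 2.09 ± 0.60 (edgeR adjusted p = 0.0757, not called), and KO against Het at E13 was 0.38 ± 0.57 (edgeR adjusted p = 0.911). Without E9 library 4 the Het difference was 1.62 and was called (edgeR adjusted p = 0.0121). The call of KO against E9 ended without E9 library 1 (edgeR adjusted p = 0.0618) or 2 (0.129) and without KO library 1 (0.134), 2 (0.0921) or 3 (0.0939). The overlapping Nfatc3 had group means of 120 CPM at E9, 121 and 135 CPM in E13 Het and KO epidermis and 114 CPM in dermis. In the same groups 1810019D21Rik had 2.20, 13.2, 13.8 and 0.432 CPM. Both had the same order of group means as Esrp2, although those of Nfatc3 lay close together.

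Esrp2 gave 16.2%, 15.0% and 2.77% of the Esrp1 and Esrp2 reads at E9, 42.2%, 22.3% and 24.8% in E13 Het epidermis and 37.2%, 27.8% and 28.1% in KO epidermis. The E13 groups overlapped each other and not E9. The exact permutation p was 0.1 for each E13 group against E9, the smallest possible (two-sided, n = 3 and 3), and 0.8 for KO against Het, or 0.15 and 0.923 after adjustment over the 15 ratio tests. In dermis there were 8, 13 and 0 reads of the Esrp genes together, too few for a share.

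The genes around the receptors were taken from lists by function. The counts called of each list stand beside the shares that edgeR called of all genes. These were 2.2% for KO against Het epidermis at E13 and 7.29% for E13 against E9. They were 7.67% for KO against E9 and 34.7% for E13 Het epidermis against dermis. Among 18 feedback and response genes, which are known to be induced by FGF signalling or to damp it, 17 were tested. From E9 to E13 in Het epidermis 4 fell and 0 rose, with a median log2 fold change of -0.96 against -0.00 over all genes. Those that fell were Spry4, an inhibitor of receptor signalling (-4.32 ± 0.81, edgeR adjusted p = 0.0079), Ccnd1, a cyclin of G1 phase (-1.51 ± 0.28, 0.00414), Flrt3, a membrane protein that binds FGF receptors (-0.82 ± 0.18, 0.0127), and Etv4, an ETS transcription factor (-3.71 ± 0.94, 0.0274). Spry4 was 80.8, 95.9 and 46.9 CPM at E9 and 0, 6.18 and 4.60 CPM in E13 Het epidermis, and the groups were apart. The Etv4 call ended without any of the 6 libraries in turn (edgeR adjusted p up to 0.125), and that of Flrt3 without E9 library 2 (0.0656). Leaving out each of the 6 libraries gave 2 to 4 called genes of the list, 2 of them without E9 library 2.

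Between KO and Het epidermis at E13, edgeR called 0 of these 17 feedback and response genes (6 at an unadjusted p under 0.05), limma voom called 3 and DESeq2 2, and the median log2 fold change was 0.04. Without E13 Het library 1 edgeR called 2, and without Het library 3 or KO library 2 it called 1. Of all genes, edgeR called 287 between KO and Het epidermis, limma voom 635 and DESeq2 824. Spry4 and Etv5, chosen here after their values were seen, differed in opposite directions. Spry4 was 17.3, 23.3 and 32.1 CPM in the KO libraries, above the Het libraries, with a log2 fold change of 2.69 ± 0.77 (edgeR adjusted p = 0.131). Etv5, another ETS factor, was 50, 42.8 and 25.2 CPM in Het and 9.26, 21.5 and 10.4 CPM in KO libraries, -1.53 ± 0.38 on the log2 scale (edgeR adjusted p = 0.0561). Neither gene's groups overlapped and neither was called. Against E9, 5 of the 17 fell in KO epidermis and 0 rose, with Ccnd1 (-1.93), Etv5 (-2.47), Rnd3 (-1.60) and Flrt3 (-0.85) among them, at edgeR adjusted p of 0.000851, 0.00124, 0.00285 and 0.0095. Of these 4, Flrt3 lost its call without E9 library 2 or KO library 1 (edgeR adjusted p up to 0.0537). The list had 3 called genes without E9 library 2 and 8 without KO library 3. The median was -1.16 against 0.01 over all genes. Against dermis, 11 of 17 were lower in E13 Het epidermis and 0 higher, with a median of -2.03 against -0.13 over all genes. They included Flrt3 (-1.66), Spry2 (-2.17), Ier2 (-2.59) and Flrt2 (-3.77), with edgeR adjusted p of 0.000289 to 0.000453.

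**Figure D5:**
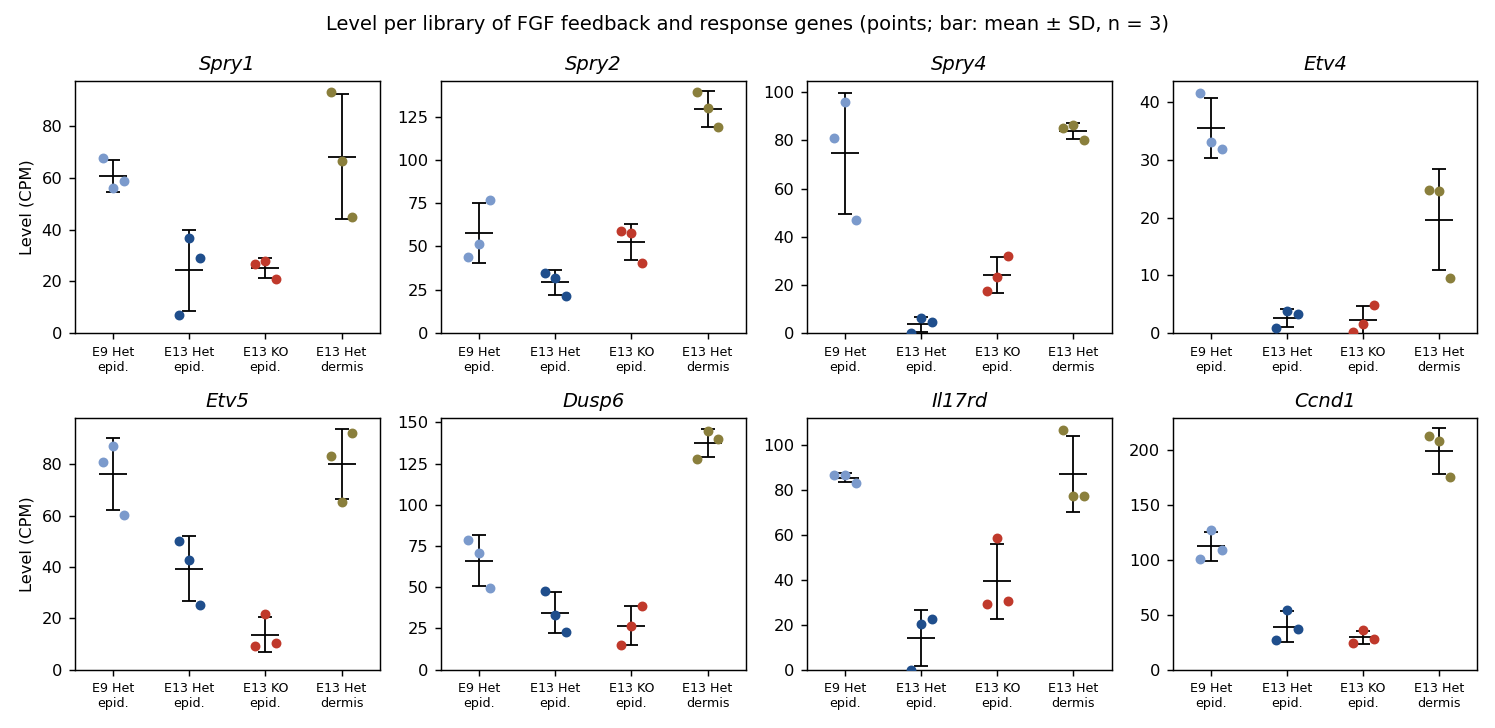
Level (CPM, linear axes from 0) of 8 FGF feedback and response genes in each library, with the mean and SD of each group of 3; error bars that would pass below 0 are cut at 0. Spry4 falls from 46.9 to 95.9 CPM at E9 to at most 6.18 CPM in E13 Het epidermis, and Etv4 stays at or under 4.92 CPM in all E13 epidermal libraries.

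Of the 20 other FGF receptor and ligand genes, 8 had enough epidermal reads to be tested. Over all genes, edgeR called 7.29% for E13 against E9, 7.67% for KO against E9 and 34.7% against dermis. Fgf8, a ligand of early ectoderm, fell from 71.0, 26.3 and 34.7 CPM at E9 to 0, 3.09 and 1.19 CPM in E13 Het and 3.8, 1.35 and 0 CPM in KO epidermis. Its log2 fold changes were -4.86 ± 1.17 and -4.62 ± 1.15 (edgeR adjusted p = 0.0244 and 0.0283). The first call ended without E9 library 1, 2 or 4 or E13 Het library 3 (edgeR adjusted p up to 0.148), and the second without E9 library 1, 2 or 4 or KO library 2 (up to 0.164). Fgf11, an intracellular FGF homologue, had no read at E9, 21.9, 3.09 and 2.05 CPM in E13 Het and 11.1, 9.69 and 6.47 CPM in KO epidermis, and rose in both comparisons (edgeR adjusted p = 0.0194 and 0.0187). The Fgf11 calls ended without E9 library 1 or 2, and the first also without E13 Het library 1 and the second without KO library 1 (edgeR adjusted p up to 0.0662 and 0.0658). Between KO and Het epidermis edgeR called 0 of the 8 (2 at an unadjusted p under 0.05), limma voom 1 and DESeq2 0. Against dermis 2 of 6 tested were lower and 0 higher: Fgf13 (-2.76 ± 0.58, edgeR adjusted p = 0.00726) and Fgf21, listed at 0 in the E13 Het epidermal libraries and at 5.32, 5.69 and 3.16 CPM in dermis (0.0186). The Fgf21 call ended without dermal library 1, 2 or 3 (edgeR adjusted p up to 0.0781), and without E13 Het library 1 the list had 5 called genes.

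Among 18 genes of co-receptors and heparan sulfate, 16 were tested within epidermis. The shares called of all genes were 2.2% for KO against Het and 7.29% for E13 against E9. For KO against E9 the share was 7.67%, and against dermis 34.7%. Sdc1, the syndecan of epithelial surfaces, was 148, 149.9 and 129.5 CPM at E9, 239, 188 and 259 CPM in E13 Het epidermis and 57.7, 61.2 and 60.1 CPM in KO epidermis. This was the order of groups that Fgfr2 had within epidermis, and no epidermal groups overlapped. In dermis Sdc1 was at 208 to 266 CPM, which overlapped E13 Het epidermis, whereas Fgfr2 was lower in dermis. Sdc1 was lower in KO than in Het epidermis by -1.95 ± 0.18 on the log2 scale (edgeR adjusted p = 2.92e-05) and was 1 of the 2 genes of the list called there. The other was Hs6st1, a heparan sulfate sulfotransferase, higher in KO by 1.38 ± 0.26 (edgeR adjusted p = 0.012). The Hs6st1 call ended without E13 Het library 1 or 2 (edgeR adjusted p up to 0.0675). From E9 to E13 in Het epidermis 2 rose, Fgfbp1, a carrier of secreted FGFs (3.5 ± 0.77), and Sdc1 (0.69 ± 0.18), and 2 fell, the proteoglycan genes Gpc3 (-1.34 ± 0.17) and Hspg2 (-0.65 ± 0.16), with edgeR adjusted p of 0.0212, 0.0276, 0.000233 and 0.0202. Of these, Gpc3 alone was called in each refit without 1 library: Fgfbp1 was lost without E9 library 2 or E13 Het library 1, 2 or 3 (edgeR adjusted p up to 0.119), Sdc1 without E9 library 1, 2 or 4 or E13 Het library 1 or 3 (up to 0.13), and Hspg2 without E9 library 2 or 4 or E13 Het library 1 or 2 (up to 0.0931). From E9 to KO epidermis 3 rose, with Hs6st1 (1.52) and Fgfbp1 (4.17) among them, and 4 fell, with Sdc1 (-1.26) and Gpc3 (-0.77) among them, with edgeR adjusted p of 0.00274, 0.00911, 0.000516 and 0.0124. Without E9 library 2, Fgfbp1 and Gpc3 were no longer called there (edgeR adjusted p = 0.0714 and 0.0519), and 2 genes of the list were called in place of 7. Without E9 library 4 or KO library 1 or 2, 4 were called. Against dermis 4 of 15 were higher, with Sdc4 (1.83) and Fgfbp1 (7.53) among them, and 6 lower, with Sdc3 (-3.28) and Ndst1 (-0.91) among them, with edgeR adjusted p of 0.000352, 0.00552, 0.000746 and 0.00651. Without dermal library 1 or 3, 6 genes were called there in place of 10. With raw library totals Ndst1 was -0.49 and not called (edgeR adjusted p = 0.143).

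All 16 adaptor and relay genes, which carry the signal from the receptor to the MAP kinases, were tested. For comparison, edgeR called 7.29% of all genes for E13 against E9, 7.67% for KO against E9 and 34.7% against dermis. Between KO and Het epidermis edgeR called 0 of them (1 at an unadjusted p under 0.05), limma voom 0 and DESeq2 0. From E9 to E13, Gab1 rose (0.83 ± 0.20) and Plcg1 (-0.58 ± 0.15) and Braf (-0.71 ± 0.19) fell, with edgeR adjusted p of 0.0209, 0.0278 and 0.0334. The calls of Gab1 and Braf ended without E9 library 1, 2 or 4 or E13 Het library 1 or 3 (edgeR adjusted p up to 0.0996 and 0.114), and that of Plcg1 without E9 library 1 or 2 or E13 Het library 1 or 3 (up to 0.137). From E9 to KO, Sos2 rose (0.92 ± 0.26) and Plcg1 fell (-0.53 ± 0.15), with edgeR adjusted p of 0.0439 and 0.0437. Plcg1 lost that call without any of the 6 libraries in turn (edgeR adjusted p up to 0.184) and Sos2 without E9 library 1 or 2 or any KO library (up to 0.187). Against dermis 4 were higher, with Cbl (1.53) and Sos2 (0.90) among them, and 3 lower, with Shc1 (-1.84) and Map2k1 (-1.59) among them, with edgeR adjusted p of 0.000629, 0.0172, 0.000425 and 0.00092. Sos2 was lost without E13 Het library 2 (edgeR adjusted p = 0.0667), and without Het library 2 or 3 or dermal library 3 the list had 4 called genes in place of 7.

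Beside the Esrp genes, 20 other splicing regulators were listed, of which 19 were tested within epidermis. Among all genes, 7.29% were called for E13 against E9, 7.67% for KO against E9 and 34.7% against dermis. Mbnl3, a muscleblind protein, was 69.1, 49.7 and 56.8 CPM at E9, 145, 256 and 261 CPM in E13 Het and 337, 357 and 270.4 CPM in KO epidermis. It rose by 1.92 ± 0.22 in Het and 2.45 ± 0.23 in KO epidermis on the log2 scale (edgeR adjusted p = 8.2e-05 and 1.35e-05). Khdrbs3, a STAR family RNA-binding protein, fell in both, by 2.13 and 2.44 on the log2 scale (edgeR adjusted p = 0.0303 and 0.0148). The first Khdrbs3 call ended without E9 library 1, 2 or 4 or E13 Het library 1 or 3 (edgeR adjusted p up to 0.123), and the second without E9 library 1 (0.069). These were the 2 genes called from E9 to E13 in Het epidermis. In KO epidermis, 4 were called against E9, the others being Rbm47, an epithelial RNA-binding protein (2.23 ± 0.50, edgeR adjusted p = 0.0126), and Celf1 (-0.69 ± 0.16, 0.0143). Rbm47 was lost without E9 library 2 (edgeR adjusted p = 0.0668) and Celf1 without E9 library 1 or 2 or KO library 1 (up to 0.0653). For KO against Het, edgeR called 0 of 19 (3 at an unadjusted p under 0.05), whereas DESeq2 called 1 and limma voom 1. Against dermis 5 of 20 were higher and 5 lower, with Mbnl2 (1.45) higher and Celf2 (-1.72), Ptbp1 (-1.09) and Hnrnpm (-0.98) lower at edgeR adjusted p of 0.000763, 0.00127, 0.00162 and 0.00278. Without dermal library 3, 6 were called there in place of 10.

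All 7 genes known for exons under Esrp control were tested, as whole genes. The share of all genes called was 7.29% for E13 against E9, 7.67% for KO against E9 and 34.7% against dermis. Tcf7l2, a Wnt pathway transcription factor, and Arhgef11, a guanine nucleotide exchange factor, rose in Het epidermis between E9 and E13 (1.29 ± 0.24 and 0.71 ± 0.19, edgeR adjusted p = 0.00404 and 0.039) and to KO epidermis (1.08 ± 0.24 and 0.85 ± 0.19, 0.0131 and 0.0148). Enah, an actin regulator, fell to KO epidermis (-0.61 ± 0.17, edgeR adjusted p = 0.0363). In Het epidermis Arhgef11 was lost without E9 library 1, 2 or 4 or E13 Het library 1 or 3 (edgeR adjusted p up to 0.173). In KO epidermis Tcf7l2 was lost without E9 library 1 or 2 or KO library 2 (edgeR adjusted p up to 0.0787), Arhgef11 without E9 library 2 or KO library 1 or 3 (up to 0.0801), and Enah without E9 library 1, 2 or 4 or KO library 1 or 3 (up to 0.16). Against dermis, 3 of the list were higher and 0 lower, with Tcf7l2 (2.84) and Arhgef11 (1.18) among them, at edgeR adjusted p of 0.00235 and 0.00274. Without E13 Het library 1, 5 were called. In KO against Het, edgeR called 0 of 7 (1 at an unadjusted p under 0.05), whereas DESeq2 called 1 and limma voom 1.

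Of the 5 transcription factors known to repress epithelial genes, Esrp1 included, 4 were lower in E13 Het epidermis than in dermis: Twist1 (-5.01 ± 0.71), Snai1 (-4.58 ± 0.80), Zeb2 (-5.44 ± 1.01) and Zeb1 (-4.91 ± 1.03), with edgeR adjusted p of 0.00199, 0.0045, 0.0063 and 0.0106. Of all genes, 18.2% were called lower in that comparison. With no filter on low counts Zeb1 was not called (edgeR adjusted p = 0.0615). Within epidermis 4 were tested and Snai2, the fifth of them, was the gene called: it was 80.5, 74.8 and 60.7 CPM in Het and 1.97, 11.4 and 12.7 CPM in KO libraries at E13, -3.07 ± 0.59 on the log2 scale (edgeR adjusted p = 0.0143). Of all genes, 1.36% were called lower in KO than in Het epidermis at E13. Esrp1 and Esrp2 were not called in that comparison. Without library 2 of both groups, which held the most dermal marker reads, Snai2 was -3.32 (edgeR adjusted p = 0.094), and without Het library 1 and KO library 3, which had the fewest genes detected, -3.36 (0.0745). From E9, edgeR called 0 of 4 in Het (1 at an unadjusted p under 0.05; limma voom 1, DESeq2 1) and 0 of 4 in KO epidermis (1 at an unadjusted p under 0.05; limma voom 2, DESeq2 1). Over all genes edgeR called 7.29% from E9 to E13 Het and 7.67% from E9 to KO epidermis. Both limma voom and DESeq2 called more of all genes than edgeR there.

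The genes with profiles most like those of the called genes over the 9 epidermal libraries were ranked by the root mean square difference of log2(CPM + 1) values, each centred on its own mean, among 10421 genes. For Fgfr2 they were Dst, a plakin of hemidesmosomes (0.16), Mgat5, a glycosyltransferase (0.21), and Zfp36l2, an RNA-binding protein (0.29). Dst had group means of 458 CPM at E9, 1092 CPM in E13 Het and 222 CPM in KO epidermis, beside 441, 929 and 187 CPM of Fgfr2. For Fgfr1 they were Tvp23a (0.12), Arnt2 (0.22) and Itpr1 (0.22), for Esrp1 Usp9x (0.09), Ip6k1 (0.12) and Fam168a (0.13), and for Esrp2 Rnf150 (0.37), Plekha6 (0.41) and Zbtb4 (0.43). In dermis, which the ranking did not use, Rnf150 was at 42.0 CPM and Usp9x at 283 CPM, where Esrp2 and Esrp1 were at 0.116 and 0.412 CPM.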

How the data were processed

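RNA-seq libraries of sorted skin cells (12, in 4 groups of 3) were used. The 7 ATAC and 1 ChIP libraries were not analysed here. Kits from SMARTer and NEBNext that keep strand were used, per the labels' protocols. The authors deposited whole-number counts per gene symbol, 1 file per library. TopHat2, Bowtie2, HTSeq and mm10 are named per the submitters' processing notes, without versions. How HTSeq was set for strand is not given in the sources. The 5 summary lines of each file, 48.8% to 63.8% of entries in epidermal and 20.2% to 21.6% in dermal files, were left out of library sizes.

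Counts were fitted with edgeR 4.0.16 in R 4.3.3 (filterByExpr, TMM, robust quasi-likelihood F test). The 3 epidermal comparisons came from 1 fit of 9 libraries (6 residual degrees of freedom), and the dermal comparison from its own 6 libraries (4 degrees). The common biological coefficient of variation was 0.571 and 0.506. Standard errors are the log2 fold change divided by the square root of F. CPM were scaled by TMM over all 12 libraries, and limits for a count of 0 use 3 counts. Simulated counts with 200 changed genes were also run through these steps. No error rate for the present libraries was taken from that run. No pair of replicates was a duplicate (chi-square per degree of freedom 15.4 to 227).

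The 9 genes, the lists and the tests were chosen with earlier results of these data known. All 9 genes are named, with up to 4 called genes per list and comparison, by smallest adjusted p, except 1 result that is not reported here. Alternatives were DESeq2 1.42.0, limma 3.58.1 voom with sample weights, other scalings and filters, all 12 libraries in 1 fit, a replicate block and leaving out libraries. Gene positions and promoters come from RefSeq tables of GRCm38.p6, in which all 9 symbols matched.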

Additional observations from a re-analysis of the deposited data

How the results depend on the processing

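Fgfr2 kept its direction and its call in all 4 comparisons under every alternative run. Of 474 values of the 9 genes under alternatives, 420 kept direction and side of the threshold, 30 lost a call, 15 gained one and 9 changed sign. The values that changed sign all belonged to uncalled differences, of Fgf10, which had few epidermal reads, and of Fgfr3 and Fgfrl1. For Fgf10 in KO against Het, the value was -5.28 without KO library 2, within a range of -5.28 to 7.14 over the refits with 1 library left out. For Fgf10 in E13 against E9 it was 0.18 with limma voom, 1.60 with a replicate block and 1.23 without E9 library 4, and the refits with 1 library left out ranged from -6.61 to 1.23. For KO against E9, Fgf10 was -0.07 without E9 library 1 and -6.63 without KO library 2 (range -6.63 to 3.09), Fgfr3 was 0.45 without E9 library 2 and 0.12 without KO library 3 (range -0.91 to 0.45), and Fgfrl1 was 0.13 with a replicate block. Of 1029 values of the named list genes, 897 were unchanged in this sense and 132 lost a call.

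Between KO and Het at E13, 287 genes were called, against 824 with DESeq2, 635 with limma voom and 148 without library 2 of both groups (an alternative chosen after the data were seen), and 182 to 348 with 1 library left out. Of the 9 genes, 1 was called in place of 2 without those libraries, without the libraries with fewest genes detected and with a replicate block, and 1 to 2 with 1 library left out. Between E13 and E9, 952 genes were called, against 1997 with DESeq2, 1692 with limma voom and 576 with a replicate block, and 569 to 812 with 1 library left out. Of the 9 genes, 5 were called with DESeq2 and 4 with limma voom, and 2 to 3 with 1 library left out. Esrp2 was called there with DESeq2 (adjusted p = 0.0187), limma voom (0.0206), a filter at a mean of 5 CPM (0.0441) and a replicate block (0.00918). Between KO and E9, 1001 genes were called, against 2172 with DESeq2, 2563 with limma voom and 540 with a replicate block, and 557 to 815 with 1 library left out. Of the 9 genes, 1 was called with all 12 libraries in 1 fit, where Esrp1 had an adjusted p of 0.403 and Esrp2 of 0.055, and 1 to 2 with 1 library left out. With no filter on low counts Esrp2 had 0.129. Between epidermis and dermis, 4504 genes were called, and 2934 to 5269 with 1 library left out (2934 without dermal library 3), with 5 to 8 of the 9 genes. With all 12 libraries in 1 fit Fgf7 was not called there (0.102), and with no filter Fgf10 was (0.036). Fewer libraries leave fewer residual degrees of freedom, and other causes of these changes were not tested.

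Of the feedback and response genes, 4 were called in E13 against E9, against 8 with DESeq2 and 10 with limma voom, and 5 in KO against E9, against 9 and 12. Of the other splicing regulators, 2 were called in E13 against E9, against 5 with DESeq2 and 4 with limma voom, and of the genes with exons under Esrp control 2, against 4 and 4.

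The labels give replicate numbers but do not say that they mark shared litters or days. Deviations of same-numbered libraries from their group means correlated at -0.02 to 0.16 for KO and Het at E13, and at 0.00236 to 0.0412 in the other comparisons. Differently numbered libraries gave -0.08 to 0.06 in the epidermal comparisons. For epidermis and dermis they gave -0.035 to -0.008, below every same-numbered pair there. These values do not decide whether the numbers mark pairs. The main tests took none because the labels state none. With the replicate block, Fgfr1 in KO against Het had an adjusted p of 0.0546, Esrp1 in KO against E9 0.179 and Fgf7 against dermis 0.0532, and of 93 values 71 kept direction and side of the threshold. Depth limits the ligands within epidermis, where a count of 0 allows up to 0.371 to 0.777 CPM in a library.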
